A study of Mus musculus with 12 samples.

Results

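The sites described here are the IRF4 peaks and the BATF peaks of wild-type mouse CD4 T cells placed under Th2 conditions, kept where neither background library had a peak. Members were chosen by position from the peak lists of these 2 libraries: peaks on chromosomes 1 to 19, X and Y that share no base with a wild-type Ig or wild-type input peak. The rule left 612 of 824 IRF4 peaks and 608 of 772 BATF peaks, together 1220 of the 99986 peaks in the 12 lists of the series. An IRF4 peak and a BATF peak that share at least 1 bp form a joint site. This gave 23 joint sites, each made of 1 IRF4 and 1 BATF peak, 589 IRF4-only sites and 585 BATF-only sites, 1197 sites in all.

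The cells were naive CD4 T cells from spleen and nodes of wild-type C57/Bl6j mice aged 7 weeks. They were stimulated on plates coated against CD3 and CD28 and given IL-4 at 10 ng/ml with an antibody that blocks IFNgamma, for a period the labels give only as a few hours. Chromatin of 300000 cells was immunoprecipitated per kit protocol, with anti-IRF4 in 1 library and anti-BATF in the other. A nonspecific Ig library and an input library of the same genotype served as background. The wild-type STAT6 and NLRP3 lists, and the 6 lists of NLRP3 KO cells treated in the same way, were searched for the same sites. The labels do not say how many mice gave cells or whether they were pooled. Each antibody and genotype has 1 library, so nothing below is tested against replicate error and no p-value is given. The intervals are exact 95% intervals for the counting of peaks alone, and neighbouring peaks are not independent. In a bulk preparation, binding in fewer cells and weaker binding per cell cannot be told apart. The label as Th2 cells could not be checked, since peak lists without an annotation of their build hold no marker genes.

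IRF4 is a transcription factor of the interferon regulatory factor family that T cells induce after antigen receptor signalling. It binds DNA weakly on its own. BATF, of the AP-1 family, pairs with a JUN protein, and a BATF-JUN dimer can recruit IRF4 to a composite element in which an AP-1 motif lies next to an IRF motif. IRF4 is needed for Th2 cells to form, and STAT6 is the factor that the IL-4 receptor activates in these cells. Sites held by both IRF4 and BATF are therefore a known class of T cell enhancer. No genome sequence of the build of these peaks was used, so motifs, genes and the sequences of the sites are not analysed here.

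Joint sites were a small part of both lists. The 23 joint sites made up 3.76% (interval 2.40 to 5.59) of the IRF4 peaks and 3.78% (2.41 to 5.62) of the BATF peaks. They lay on 13 of 21 chromosomes, with 3 each on chromosomes 6, 9 and 17, and none on chromosome 1, which held 51 IRF4-only and 50 BATF-only sites. Treated in the same way, 5.72% (4.02 to 7.86) of the IRF4 peaks met a STAT6 peak and 7.68% (5.70 to 10.1) met an NLRP3 peak. The lists searched held 2871 STAT6, 392 NLRP3 and 608 BATF peaks. Of the BATF peaks, 3.62% (2.28 to 5.43) met STAT6 and 1.97% (1.02 to 3.42) met NLRP3. The IRF4 list therefore shared 47 peaks with the NLRP3 list and 23 with the BATF list, and the BATF list shared 12 with the NLRP3 list. BATF was thus not the list that IRF4 met most often, as the shorter NLRP3 list was met more. The STAT6 list is longer, and 1.18% (0.821 to 1.65) of its peaks met IRF4, against 3.78% of the BATF peaks.

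Removing the background peaks took away most of the overlap between IRF4 and BATF. On the same chromosomes 111 IRF4 peaks and 81 BATF peaks shared a base with wild-type Ig or input and were dropped. Of the dropped BATF peaks 77, or 95.1%, met a dropped IRF4 peak, and of the dropped IRF4 peaks 74, or 66.7%, met a dropped BATF peak. No kept IRF4 peak met a dropped BATF peak, and 2 kept BATF peaks met a dropped IRF4 peak. Before removal 99 of 723 IRF4 peaks, or 13.7%, and 102 of 689 BATF peaks, or 14.8%, were joint. A further 8 IRF4 and 4 BATF members lay within 1000 bp of a wild-type background peak without touching it.

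The joint sites stood high in both lists. The caller's score, which is the authors' own value for each peak and is not comparable between lists, was turned into a percentile in which the lowest peak of a list is near 0 and the highest near 100. Joint IRF4 peaks had a median percentile of 90.8 (interval 75 to 97.1), against 47.5 (44.4 to 52.2) for IRF4-only peaks. Joint BATF peaks had a median of 88.2 (61.0 to 97.8), against 50 (44.7 to 50) for BATF-only peaks. The classes still overlapped, since IRF4-only peaks reached the 99.9th percentile and the lowest joint BATF peak stood at 7.73. As scores, the joint IRF4 peaks ran from 53.1 to 228.2 with a median of 91.2, and the joint BATF peaks from 54.2 to 671 with a median of 110.7. The medians of IRF4-only and BATF-only peaks were 58.8 and 67.9. With background peaks kept, the median percentile was 92.3 (89.0 to 94.0) for joint IRF4 and 84.1 (72.4 to 88.2) for joint BATF peaks. A high rank was thus not particular to the kept joint sites.

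The share of joint sites rose with rank in both lists. In the IRF4 list 17 of the 23 joint peaks stood at or above the 75th percentile, where they were 10.8% (6.44 to 16.8) of 157 peaks. From the 50th to the 75th percentile 5 of 149 peaks were joint, and below the median 1 of 306 was. In the BATF list 13 joint peaks stood at or above the 75th percentile and were 8.50% (4.60 to 14.1) of 153 peaks, while 6 of 176, 2 of 126 and 2 of 153 peaks were joint in the next ranges downward. Even at the top of either list, then, most peaks had no partner. Both peaks of the pair stood at or above the 75th percentile at 11 joint sites, 1 of them did at 8, and neither did at 4. Across the 23 pairs the scores of the IRF4 and the BATF peak had a Spearman rho of 0.57, a description of sites that share both libraries.

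**Figure D1:**
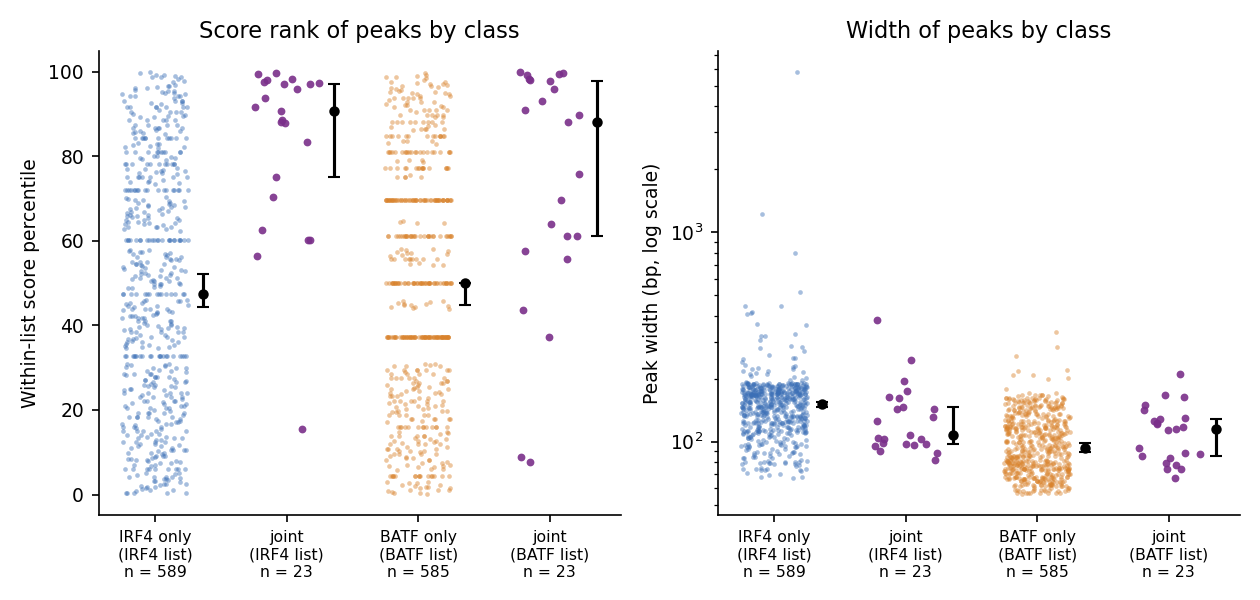
Each point is a peak, placed by its within-list score percentile (left) or its width in bp on a log scale (right), for IRF4-only, joint and BATF-only peaks; black marks give the median and its 95% interval. Joint peaks stand high in both lists (medians 90.8 and 88.2), with 17 of 23 IRF4 and 13 of 23 BATF peaks at or above the 75th percentile. Rows of points at 1 height are tied scores.

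Peak widths differed between the factors at sites they held alone and were closer at joint sites. IRF4-only peaks had a median width of 151 bp (147 to 155) and BATF-only peaks of 93 bp (89 to 98). At joint sites the median was 107 bp (97 to 147) for the IRF4 peak and 115 bp (85 to 128) for the BATF peak. The IRF4 peak was the wider of the pair at 14 sites and the BATF peak at 9. Width moved with score within each list, with a Spearman rho of -0.40 across the 612 IRF4 peaks and of -0.47 across the 608 BATF peaks. Among IRF4 peaks scored 100 or more the median was 97.5 bp (90 to 194) for the 10 joint and 93 bp (77 to 217) for the 34 IRF4-only peaks. Below that score it was 131 bp (103 to 161) for 13 joint and 152 bp (147 to 156) for 555 IRF4-only peaks, so the joint IRF4 peaks had the lower median below a score of 100 only, and the intervals overlapped in both ranges. Among BATF peaks with such scores it was 115 bp (85 to 130) for the 12 joint and 86 bp (83 to 94) for the 73 BATF-only peaks, with overlapping intervals. With background peaks kept, the order turned for IRF4, at 182 bp for joint and 151.5 bp for IRF4-only peaks.

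Where the 2 factors met, the middles of most pairs of peaks were close together. The distance between the middles of the IRF4 and BATF peak had a median of 7 bp (4.5 to 31) over the 23 pairs and ran from 0 to 86 bp. It was at most 10 bp at 12 sites, at most 15 bp at 15 sites and above 30 bp at 7. The overlap rule itself bounds this distance. With background peaks kept the median was 15.5 bp (11 to 20) over 103 pairs, so close middles were not particular to the kept sites. The BATF peak lay wholly within the IRF4 peak at 10 sites, the IRF4 peak wholly within the BATF peak at 6, and they overlapped in part at 7. The shared stretch ran from 29 to 211 bp with a median of 93 bp. The pair just inside the rule, with 29 bp shared, lay on chromosome 17 and had the lowest joint IRF4 percentile, 15.4. The next shared 53 bp. Just outside the rule were an IRF4-only peak 128 bp from a BATF-only peak on chromosome 13 and one 143 bp from the BATF peak of a joint site on chromosome 18.

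**Figure D2:**
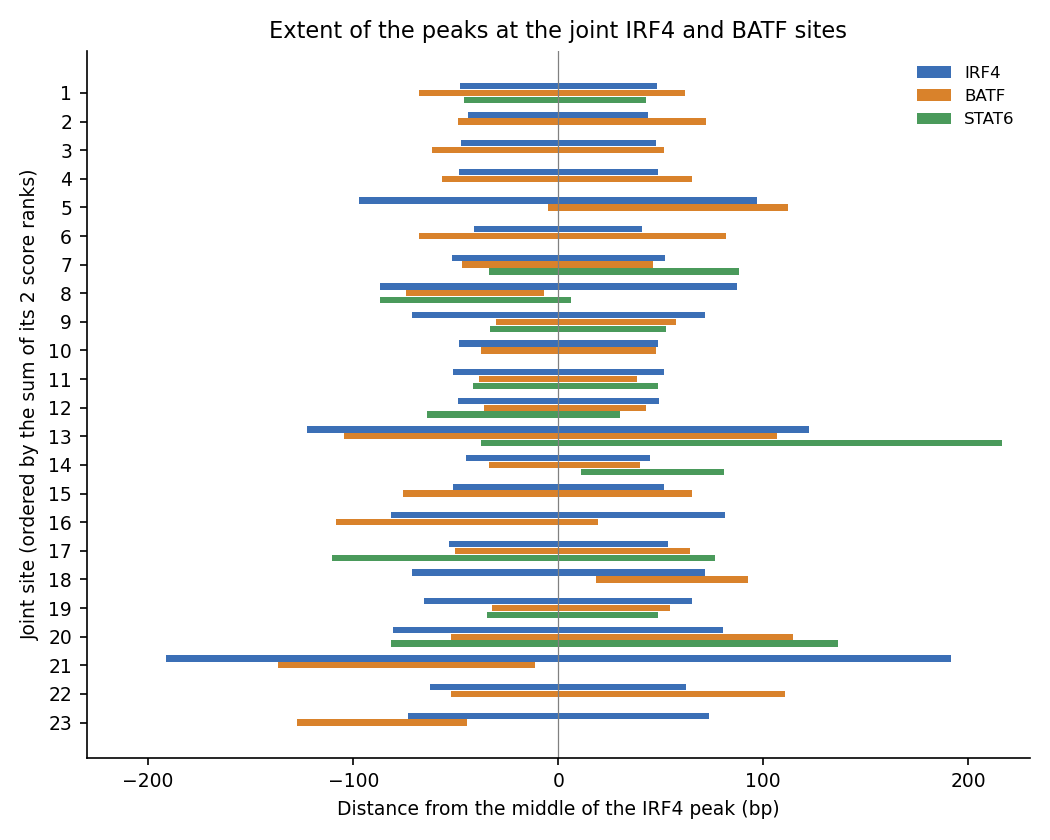
Each row is 1 of the 23 joint sites, ordered by the sum of its IRF4 and BATF score ranks; bars show the extent of the wild-type IRF4, BATF and, where present, STAT6 peak in bp from the middle of the IRF4 peak. Most pairs have close middles (median distance 7 bp), and the largest offset, 86 bp, is at the last site.

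Away from the joint sites the factors lay megabases apart, as background peaks did, with overlapping intervals. IRF4-only peaks had the nearest BATF peak at a median of 1.64 Mb (1.42 to 1.79). For 573 wild-type Ig peaks outside input the distance to the same BATF peaks was 1.54 Mb (1.40 to 1.78), and for 421 wild-type input peaks outside Ig it was 1.87 Mb (1.66 to 2.12). BATF-only peaks had the nearest IRF4 peak at 1.49 Mb (1.29 to 1.68), against 1.41 Mb (1.24 to 1.59) for Ig and 1.74 Mb (1.42 to 2.01) for input. Peaks that overlap were left out of these values. Only 2 IRF4-only peaks lay within 1 kb of a BATF peak, 3 within 10 kb and 21, or 3.57% (2.22 to 5.40), within 100 kb. Of the Ig peaks 29, or 5.06% (3.42 to 7.19), lay within 100 kb of a BATF peak, and of the input peaks 16, or 3.80% (2.19 to 6.10). Of the BATF-only peaks 1, 2 and 24 lay within 1, 10 and 100 kb of an IRF4 peak, the last being 4.10% (2.65 to 6.04). Of the Ig peaks 41, or 7.16% (5.18 to 9.58), lay within 100 kb of an IRF4 peak, and of the input peaks 15, or 3.56% (2.01 to 5.81). Apart from overlaps, few peaks of either factor thus lay within 100 kb of the other, as for the background peaks. These distances also depend on list length, so they do not show how the 2 factors are placed. With scores of 100 or more in both lists the IRF4-only median was 6.70 Mb over 37 peaks.

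**Figure D3:**
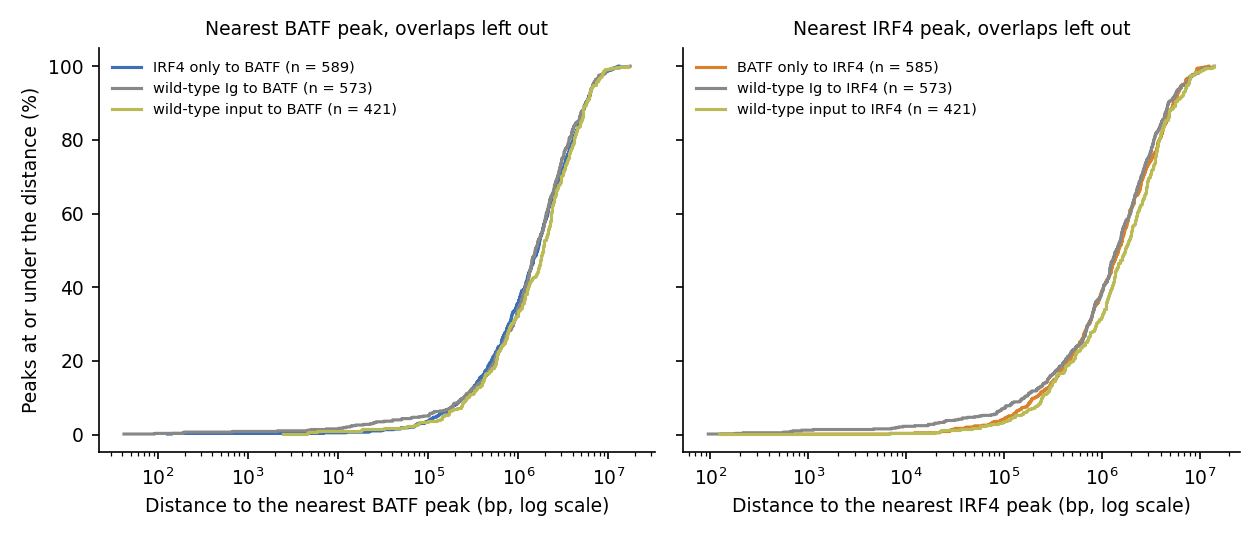
Cumulative share of peaks (vertical axis, percent) by distance to the nearest peak of the other factor in bp on a log scale, with wild-type Ig and input peaks measured to the same targets and overlapping peaks left out. The curves of IRF4-only and BATF-only peaks run with those of the background libraries, with medians between 1.41 and 1.87 Mb.

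STAT6 was found at joint sites far more often than at sites of a single factor. A peak of the full wild-type STAT6 list shared a base with 11 of the 23 joint sites, or 47.8% (26.8 to 69.4), with 24 of 589 IRF4-only sites, or 4.07% (2.63 to 6.002), and with 12 of 585 BATF-only sites, or 2.05% (1.06 to 3.56). Over all 1197 sites the share was 3.93%. Of the wild-type Ig peaks outside input 14.5% met a STAT6 peak, and of the input peaks outside Ig 2.85% did. The Ig peaks cannot be freed of Ig background as the sites were, so their share is not measured in quite the same way. The interval of the joint sites lay above all of these shares, and those of the IRF4-only and BATF-only sites lay below the Ig share. With background peaks kept, however, STAT6 met 89 of 103 joint pairs, or 86.4% (78.2 to 92.4). The share was thus higher still when joint regions with background were counted, and a high STAT6 share was not particular to the kept joint sites.

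The STAT6 share also differed with score. Among IRF4-only peaks STAT6 was present at 20 of 140 at or above the 75th percentile, or 14.3% (8.95 to 21.2), at 3 of 144 in the next range and at 1 of 305 below the median. Joint IRF4 peaks at or above the 75th percentile met STAT6 at 8 of 17, or 47.1% (22.98 to 72.2). With a score of at least 100, a minimum applied to each list on its own, the shares were 60% (26.2 to 87.8) of 10 joint peaks and 29.4% (15.1 to 47.5) of 34 IRF4-only peaks, with overlapping intervals. Under 100 the shares were 38.5% (13.9 to 68.4) of 13 joint and 2.52% (1.39 to 4.20) of 555 IRF4-only peaks, without overlap of the intervals. BATF-only peaks at or above the 75th percentile met STAT6 at 5 of 140, or 3.57% (1.17 to 8.14), and joint ones at 6 of 13, or 46.2% (19.2 to 74.9). With a score of at least 100, 41.7% (15.2 to 72.3) of 12 joint and 4.11% (0.856 to 11.5) of 73 BATF-only peaks met STAT6. Below a score of 100 they were 54.5% (23.4 to 83.3) of 11 joint and 1.76% (0.807 to 3.31) of 512 BATF-only peaks. At or above the 75th percentile of their own lists IRF4-only peaks met STAT6 more often than BATF-only peaks did, 14.3% against 3.57%, with intervals that did not overlap.

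The STAT6 peaks at joint sites were themselves high in the STAT6 list. Their median percentile was 95.9 (76.3 to 97.8), and 10 of the 11 stood at or above the 75th. STAT6 peaks at IRF4-only sites had a median of 76.8 (64.9 to 88.8) and those at BATF-only sites of 87.9 (57.2 to 92.3). The middle of the STAT6 peak lay a median of 4 bp (1.5 to 43) from that of the BATF peak and 17 bp (3.5 to 46) from that of the IRF4 peak at joint sites. At single-factor sites it lay 14.2 bp (2.5 to 52.5) from the IRF4 and 17 bp (6 to 51) from the BATF middle. Sites without an overlap had STAT6 far off. The nearest STAT6 peak was a median of 0.280 Mb away for the 565 IRF4-only sites and 0.323 Mb for the 573 BATF-only sites that did not meet one, and 12 and 2 of these lay within 1000 bp.

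The 11 joint sites with STAT6 differed from the 12 without it in several listed values. The middles of the IRF4 and BATF peaks were a median of 3.5 bp apart with STAT6 and 20.2 bp apart without. The ranges overlapped, at 0 to 40.5 bp with and 4.5 to 86 bp without STAT6. The median IRF4 percentile was 93.6 with and 89.4 without STAT6, and the median BATF percentile 75.7 with and 92.8 without. All 6 joint sites with a knockout STAT6 peak were among the 11. So were all 4 joint sites with a peak in knockout Ig or input, while none of the 12 sites without STAT6 had such a peak. At these 4 sites the middles were 0 to 3 bp apart, so they lower the median of the sites with STAT6. Of the 12 sites without STAT6, 6 were in no other list.

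Background of the other genotype was present at joint sites and moves with these shares. Knockout Ig or input, which the rule did not use, had a peak at 4 of 23 joint sites, or 17.4% (4.95 to 38.8), at 17 IRF4-only sites, or 2.89% (1.69 to 4.58), and at 2 BATF-only sites, or 0.342% (0.0414 to 1.23). Knockout Ig alone met 1.00% and knockout input 0.919% of all 1197 sites. Without these sites STAT6 was found at 7 of 19 joint sites, or 36.8% (16.3 to 61.6), 19 of 572 IRF4-only sites, or 3.32% (2.01 to 5.14), and 10 of 583 BATF-only sites, or 1.72% (0.826 to 3.13), so the order of the classes was the same.

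Every other ChIP list also met the joint sites more often than the single-factor sites. The NLRP3 antibody had a wild-type peak at 9 of 23 joint sites, or 39.1% (19.7 to 61.5), at 6.45% (4.61 to 8.75) of IRF4-only and at 0.684% (0.187 to 1.74) of BATF-only sites, beside 4.26% of all sites. It met 5 of the joint sites together with STAT6. In the cells labelled NLRP3 KO the same antibody had a peak at 3 joint sites, or 13.0% (2.78 to 33.6), beside 0.919% of all sites. Knockout STAT6 met 26.1% (10.2 to 48.4) of joint, 4.92% (3.32 to 6.99) of IRF4-only and 0.684% (0.187 to 1.74) of BATF-only sites, beside 3.26% of all sites. IRF4-only sites thus met the wild-type NLRP3 and knockout STAT6 lists more often than BATF-only sites, with intervals that did not overlap. The 4 joint sites with a knockout Ig or input peak were all among the 9 with wild-type NLRP3. They were also all among the 5 with NLRP3 and STAT6 and the 6 with knockout STAT6. The joint shares of these lists therefore include sites with background of the other genotype, and they were not recomputed without them.

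The knockout lists of the same factors met a larger share of joint than of single-factor sites, although most of the sites they met were of a single factor. Knockout IRF4 had a peak at 10 joint sites, or 43.5% (23.2 to 65.5), but at 3.06% (1.82 to 4.79) of IRF4-only and 1.88% (0.942 to 3.34) of BATF-only sites, beside 3.26% of all sites. Knockout BATF also met 10 joint sites, and 7.52% (5.52 to 9.97) of BATF-only and 2.89% (1.69 to 4.58) of IRF4-only sites, beside 5.93% of all sites. That list holds 60926 peaks, of which 87.9% have the same score of 56.7. At 6 joint sites both knockout IRF4 and knockout BATF had a peak, and at 14 at least 1 of them did. Of the IRF4-only sites 86.8% (83.8 to 89.4) and of the BATF-only sites 89.9% (87.2 to 92.2) were in none of the 8 lists searched, against 26.1% (10.2 to 48.4) of joint sites. At least 2 of these lists met 16 of the 23 joint sites, 38 IRF4-only and 10 BATF-only sites.

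**Figure D4:**
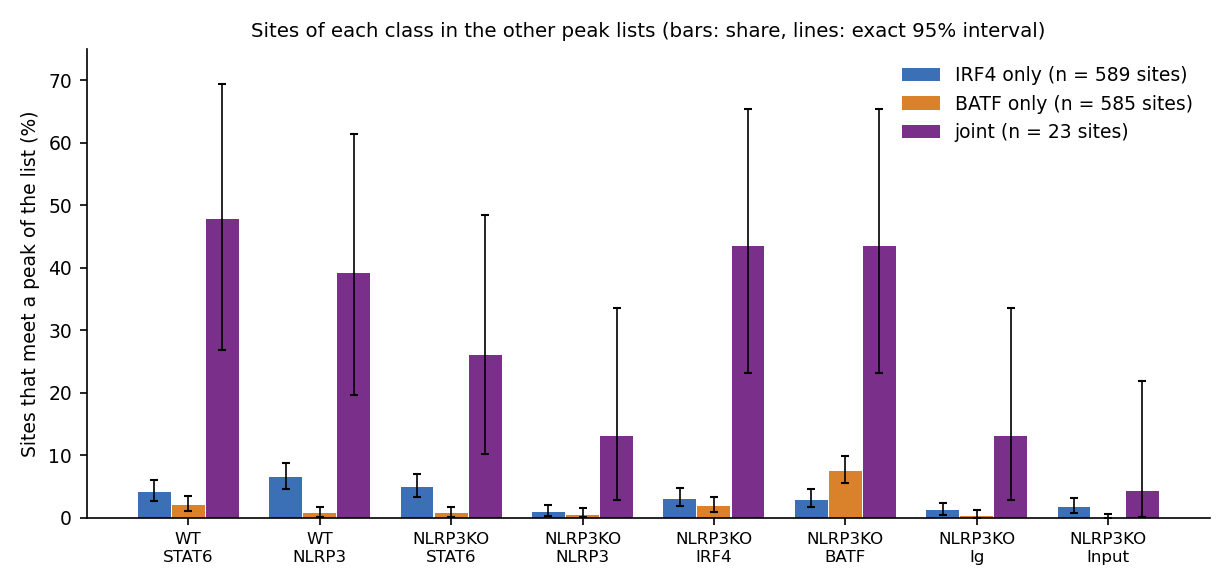
Bars give the share of sites (percent) that meet a peak of each list, for IRF4-only, BATF-only and joint sites, with exact 95% intervals; WT is wild-type and NLRP3KO the knockout. The joint bar is the tallest in every list, at 47.8% for wild-type STAT6 and 13.0% for knockout Ig.

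The leading joint sites are given by position as deposited, counted from 1, with the IRF4 interval first. The submitters name the build mm8, but the positions run past the known chromosome ends of that build and are most probably mm9. Site 1, at chromosome 6 positions 132413717 to 132413812, ranked 2 in both lists, with an IRF4 score of 228.2 and a BATF score of 633 over positions 132413697 to 132413826. The middles were 3 bp apart, and STAT6 had a peak of 73.5 whose middle was 1.5 bp from that of IRF4. Knockout lists held this site with scores of 163 for IRF4, 127 for BATF, 144 for STAT6 and 57.4 for input. It is the joint site with the best combined rank, and the one with a peak in a knockout input list.

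Sites 2 to 6 paired very high BATF ranks with IRF4 and had no STAT6 peak in either genotype. A high BATF rank did not always go with a lack of STAT6, as site 1, ranked 2 for BATF, and site 9, ranked 14, met STAT6. Site 2, at chromosome 9 positions 88448051 to 88448138, ranked 11 for IRF4 and 4 for BATF, with middles 11.5 bp apart. Site 3, at chromosome 13 positions 58869767 to 58869861, ranked 4 and 13, and knockout IRF4 scored 149 there. Site 4, at chromosome 5 positions 114623087 to 114623183, ranked 19 for IRF4 and 1 for BATF, with middles 4.5 bp apart. Site 5, at chromosome 6 positions 131327437 to 131327630, ranked 18 and 6 and was in no other list of either genotype. Site 6, at chromosome 14 positions 104736152 to 104736233, ranked 48 for IRF4 and 11 for BATF, with an IRF4 peak of 82 bp lying inside a BATF peak of 150 bp.

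Sites 7 to 14 ranked lower for BATF, and all but site 10 had a STAT6 peak. Site 7, at chromosome 12 positions 16754592 to 16754695, had middles 0.5 bp apart and STAT6 at 145, and it was in 7 of the 8 other lists, with knockout Ig at 98.6. Site 8, at chromosome 9 positions 23522173 to 23522346, had the highest STAT6 score of the joint sites, 228.1, ranking 40 in the STAT6 list. At site 9, on chromosome 9 positions 19379829 to 19379971, BATF ranked 14, IRF4 75 and STAT6 450. Site 11, on chromosome 18 positions 7033698 to 7033800, had equal IRF4 and BATF middles, STAT6 at 101.9 and knockout Ig at 91.8. At site 12, on chromosome 17 positions 63086892 to 63086989, IRF4 ranked 17, BATF 154 and STAT6 68, with no background peak in either genotype. Site 13, on chromosome 3 positions 59848974 to 59849218, was the joint site with the longest shared stretch, 211 bp, and knockout Ig scored 63.8 there. At site 14, on chromosome 18 positions 82390362 to 82390451, IRF4 ranked 13, BATF 221 and STAT6 347. Site 10, on chromosome 12 positions 17246237 to 17246333, ranked 57 and 60 and was in no other list.

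The last 9 joint sites had IRF4 scores from 53.1 to 84.2 and BATF scores from 54.2 to 183. STAT6 met 3 of them. These were on chromosome 5 at 147478156 to 147478262 with a STAT6 score of 71.4, on chromosome 10 at 94055148 to 94055278 with 65.9, and on X at 72888901 to 72889061 with 118. None of the 9 had a peak in knockout Ig or input, and 4 were in no other list. The pair with the largest distance of middles, 86 bp, was the last of them, on chromosome 17 at 88465459 to 88465605.

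**Figure D5:**
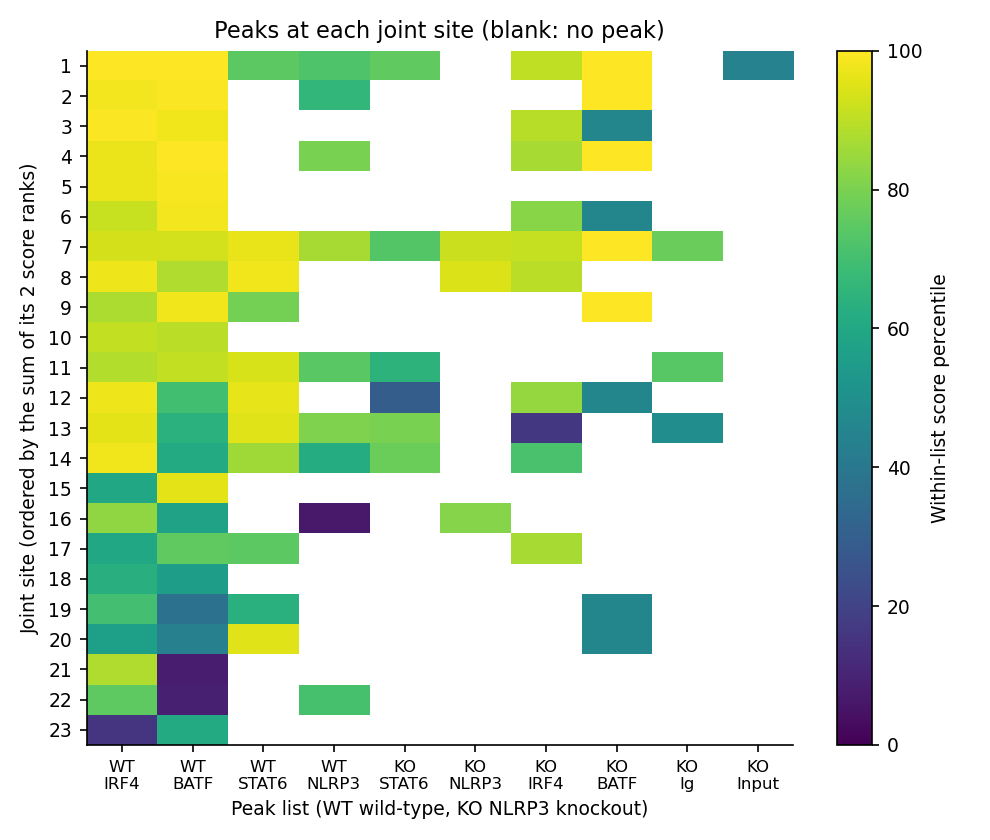
Rows are the 23 joint sites, ordered by the sum of their score ranks, and columns are peak lists (WT wild-type, KO NLRP3 knockout); colour gives the percentile of the score within its own list and blank means no peak. Percentiles are within the kept peaks for wild-type IRF4 and BATF and within the full list for the other columns. Sites 7 to 14 carry most STAT6 peaks, 7 of 11, and sites 2 to 6 carry none. These runs of rows are description only, as STAT6 met 6 of the 13 joint BATF peaks at or above the 75th percentile.

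The 5 highest IRF4-only sites met other lists, most often NLRP3. The highest IRF4-only peak, at chromosome 17 positions 39979917 to 39985757, scored 432 and was 5841 bp wide, the widest of all members, with a STAT6 peak of 59.4. The next, at chromosome 18 positions 40467644 to 40467961, scored 220 and had NLRP3 at 253, knockout STAT6 at 135, knockout IRF4 at 166 and knockout input at 57.4. The other peaks among the 5 highest of this class, at chromosome 18 positions 3005550 to 3005993, chromosome 17 positions 71312981 to 71313147 and chromosome 9 positions 3258737 to 3258921, scored 172, 168 and 147. Each of them had a wild-type NLRP3 peak, scored 140.0, 155 and 77.8, and no STAT6 peak in wild-type cells. Knockout STAT6 scored 120.3 and 67.6 at the first and the second of these, and knockout IRF4 79.1 at the first. Among the 5 highest IRF4-only peaks wild-type NLRP3 was thus present at 4, wild-type STAT6 at 1, knockout STAT6 at 3 and knockout IRF4 at 2. Over all 589 IRF4-only sites the shares were 6.45%, 4.07%, 4.92% and 3.06% in that order. No annotation of repeats was used, so whether these peaks, the 5841 bp one included, lie in repeated sequence was not tested.

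The 5 highest BATF-only peaks met neither STAT6 nor NLRP3 in either genotype. They were at chromosome 5 positions 131995572 to 131995687, chromosome 7 positions 105208521 to 105208605, chromosome 11 positions 25000059 to 25000204, chromosome 2 positions 16604673 to 16604779 and chromosome 4 positions 93407049 to 93407178. Their scores were 500.3, 376, 356, 334 and 329. Knockout BATF had a peak at 4 of them, scored 115, 56.7, 72.4 and 56.7, all but the one on chromosome 2, where knockout IRF4 scored 59.4. Knockout IRF4 also scored 83.4 at the one on chromosome 11. Their nearest IRF4 peak was between 415498 and 5456294 bp away. Over all 585 BATF-only sites wild-type STAT6 met 2.05%, wild-type NLRP3 0.684% and knockout BATF 7.52%.

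The IRF4-only peaks nearest to a BATF-only peak were 128, 6888 and 12250 bp away. The first, at chromosome 13 positions 74667717 to 74668125, scored 63.3 and met STAT6, and its BATF neighbour at 74667254 to 74667588 scored 72.8 and did not. The second, on X at 116017853 to 116018015, scored 64.6, and the third, on chromosome 19 at 19866767 to 19866940, scored 59.4. Neither of these met STAT6.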

How the data were processed

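ChIP-seq peak lists of 12 libraries were used, 1 per antibody or control and genotype, grouped by their titles. Per the file headers, MACS run in Galaxy called the peaks, and reads were aligned with Bowtie2, per the submitters' processing notes. Not given in the sources used here are the version of MACS, its threshold and its control. The score deposited by the authors for each peak, never below 50, is of the size of 10 times the negative log10 of p as MACS 1 writes it, and it is not normalized between libraries. The lists hold no read counts, so the depth is unknown, and list length and score depend on it.

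The notes name mm8, but positions reach 152397321 on chromosome 7, past the known end of that chromosome in mm8, and pass the last GRCm38 gene on 10 of 21 chromosomes. Genes, sequences and motifs were not analysed, and the gene list set for an annotated build was void.

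Overlap meant at least 1 bp, computed with pandas 2.3.3, scipy 1.17.1 and numpy 2.4.6 under Python 3.11.15, and 4 overlap counts were equal in bedtools 2.31.1. Code was tested on simulated lists. Shares have Clopper-Pearson and medians order-statistic 95% intervals. Named are the 12 joint sites with the lowest rank sum, joint sites with STAT6, the 5 highest single-factor peaks of each class, the 3 nearest single-factor pairs, and the joint pairs with the extreme distances of middles. Sites 13 and 14 fall under the STAT6 part of this rule. Members and lists were chosen with earlier results of these data known. The 8 alternatives are given in the closing section.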

Additional observations from a re-analysis of the deposited data

How the results depend on the processing

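Each of 16 values (the joint shares, the medians by class and the STAT6 shares) was recomputed under 8 alternatives, and 106 of the 128 results stayed within the 95% interval of the reported value with the same order of the classes. Requiring 50% of the shorter peak, accepting a distance of 1000 bp, or merging peaks within 1000 bp moved none of the 16. When both lists were held to scores of 100 or more, 7 joint sites were left of 44 IRF4 and 85 BATF peaks, or 15.9% and 8.24%. STAT6 then met 3 of 7 joint sites, or 42.9% (9.90 to 81.6), 35.1% (20.2 to 52.5) of IRF4-only and 6.41% (2.11 to 14.3) of BATF-only sites, so the joint and IRF4-only shares were close and their intervals overlapped. The nearest peak of the other factor was then at a median of 6.70 Mb for IRF4-only and 16.4 Mb for BATF-only peaks. The median percentile was 67.0 for joint and 44.3 for IRF4-only peaks in the IRF4 list, and BATF-only peaks were 86.5 bp wide. The order of IRF4 widths reversed, with 97 bp for joint and 96 bp for IRF4-only peaks.

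Without removal of Ig and input peaks the joint shares were 13.7% of IRF4 and 14.8% of BATF peaks, and STAT6 met 86.4% of joint and 7.05% of IRF4-only sites. BATF-only peaks were then 1.26 Mb from IRF4, and IRF4-only peaks had a median percentile of 43.3. The IRF4 widths reversed here too, with 182 bp for joint and 151.5 bp for IRF4-only peaks. The median percentile of BATF-only peaks, 50, was 50.3 with removal within 1000 bp of a control, 50.5 with removal of control peaks of both genotypes and 50.3 with all sequences. For joint BATF peaks the median, 88.2, was 76.0 with control peaks of both genotypes removed and 65.4 with all sequences. The causes of these shifts were not tested. Depth is unknown and limits the 23 joint sites to those that passed the caller in both libraries. No paired analysis was possible because each group has 1 library and no test was made.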
